A study of Arabidopsis thaliana with 19 samples.

Results

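Gene expression in epidermal cells of the Arabidopsis thaliana shoot apex was set against that in cells marked by the LAS reporter, which the labels call adaxial. The comparison took the 5 arrays titled AtML1 (n = 2) or HMG (n = 3), both labelled epidermal, and the 2 arrays titled LAS, so 7 of the 19 arrays of the series. Every group shared 1 background: plants with the ap1-1 and cal1-1 mutations, aged 28 days, whose shoot apices were protoplasted and whose reporter-carrying cells were then sorted. In ap1 cal double mutants, flowers are largely replaced by proliferating meristems, so the populations describe an inflorescence tissue rich in meristems. Each population is limited as a model by the promoter that drives its reporter, and the sources used here do not name the gene behind HMG. AtML1 and HMG weighed the same in every difference, whatever their number of arrays.

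The epidermis, or L1, is the outermost clonal layer of the shoot. ATML1 and PDF2, homeodomain proteins of the HD-ZIP class IV, set its identity, and its cells build the cuticle from very-long-chain waxes and cutin. LATERAL SUPPRESSOR (LAS) encodes a GRAS-family protein that acts in the boundary between the meristem and young organs, in leaf axils, where it is needed for axillary meristems to form. Cells of the boundary divide slowly and lie on the adaxial side, the side facing the meristem.

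All values are MAS5 signals, linear intensities of a probe set scaled so that every array had the same trimmed mean of 500. Over the 19 arrays the median signal ranged between 151.8 and 182.9. A probe set was called where limma gave a Benjamini-Hochberg adjusted p under 0.05 over 15149 probe sets and the difference was at least 2-fold. Differences are log2(signal + 1), epidermis minus LAS, with ± for the standard error. Where a gene was called absent on all arrays of the dimmer group, only a lower bound of the fold is given. Such a bound allows for the dim signal alone. It does not allow for the spread between arrays, and it pools AtML1 and HMG, so a single reporter can fall short of it. A fold compares geometric means, with the 2 epidermal reporters weighted alike. Whether replicates came from separate plants is not stated in the labels, so every p-value rests on a spread between samples that may be technical. In sorted bulk samples, fewer cells of a type and less RNA per cell cannot be told apart.

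The reporter genes themselves matched the labels. LAS (AT1G55580) gave signals of 167 and 175 in AtML1 and 201, 204 and 192 in HMG, against 5908 and 6038 in LAS. The epidermal and LAS arrays were far apart, with a 32.2-fold lower level in the epidermis (log2 -5.01 ± 0.47, adjusted p = 1.18e-05). ATML1 (AT4G21750) gave 7366 and 7307 in AtML1 and 7478, 7963 and 10344 in HMG, against 2471 and 3889.5 in LAS. Every epidermal array lay above both LAS arrays, and ATML1 was 2.55-fold higher in the epidermis (log2 1.35 ± 0.31, adjusted p = 0.0129). It was called present on both LAS arrays as well. Its signal averaged 3180.5 in LAS and 332 in the arrays titled HDG4, of the layer beneath the epidermis. ATML1 lost its call without LAS replicate 1 (adjusted p = 0.202).

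Arrays of the same epidermal reporter or of LAS resembled each other most. The Pearson correlation of log2 signals over probe sets, which describes the arrays and has no test, was 0.953 between the LAS arrays. Its median was 0.922 between AtML1 and HMG arrays, 0.908 between AtML1 and LAS, and 0.901 between HMG and LAS. The actin 3′ to 5′ signal ratio, which is high where the RNA or its amplification is biased to the 3′ end, averaged 12.04 ± 4.78 in the epidermis (SD, n = 5) and 12.6 ± 7.17 in LAS (SD, n = 2). The exact permutation test gave a two-sided p = 1, where the smallest p that its 21 arrangements allow is 0.0476. HMG replicate 1 (19.7) and LAS replicate 1 (17.7) had the highest ratios of all 19 arrays, and their part in the results was not tested beyond leaving them out. A second, older pair of actin probe sets ranked the arrays otherwise. It gave 110.2 on HMG replicate 1 and 109.6 on LAS replicate 1, and was highest on AtHB8 replicate 3 (176.5). The GAPDH ratio was highest on LAS replicate 1 (23.2).

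**Figure D1:**
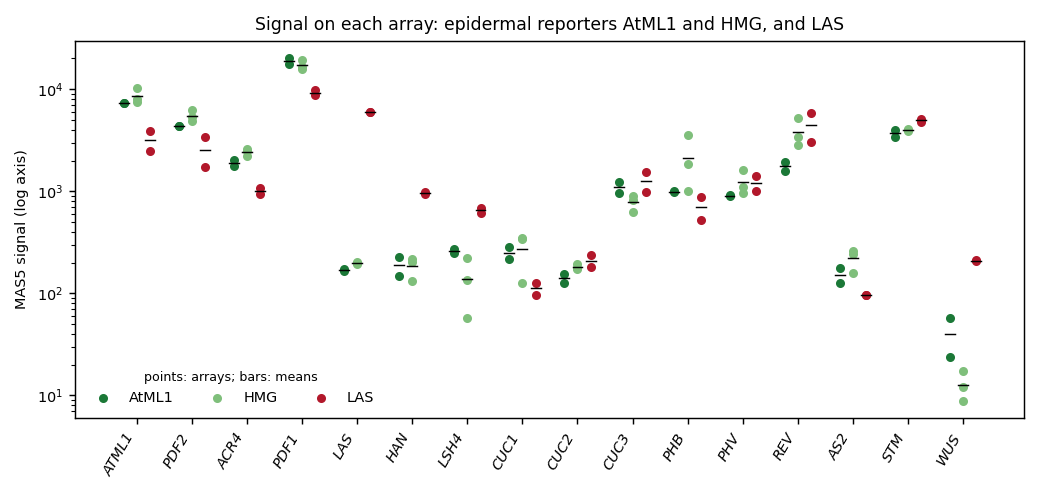
MAS5 signal (log axis) of epidermal, boundary, adaxial and meristem genes on each array, with AtML1 and HMG in greens and LAS in red; points are arrays and bars are means. ATML1, ACR4 and PDF1 lie higher on all 5 epidermal arrays than on both LAS arrays, LAS, HAN, LSH4 and WUS lie lower on all 5, and the 3 CUC genes and REV show no difference that passed the test.

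The epidermis differed from LAS in 904 probe sets, or 5.97% of those tested. There were 590 higher in the epidermis (3.89%) and 314 lower (2.07%), while 1441 (9.51%) passed the adjusted p with no fold minimum. The arrays of the 2 sides did not overlap for 3311 probe sets (21.9%). Among the called, 538 of the 590 higher and 287 of the 314 lower had no overlap. Differences of at least 4-fold numbered 179 higher and 94 lower. The LAS pair set much of the precision: 527 probe sets were called without LAS replicate 1 and 581 without LAS replicate 2. The median difference over all tested probe sets was -0.07, against which the medians of gene groups below are read. Counts within gene groups are read against the 3.89% of all tested probe sets called higher and the 2.07% called lower.

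**Figure D2:**
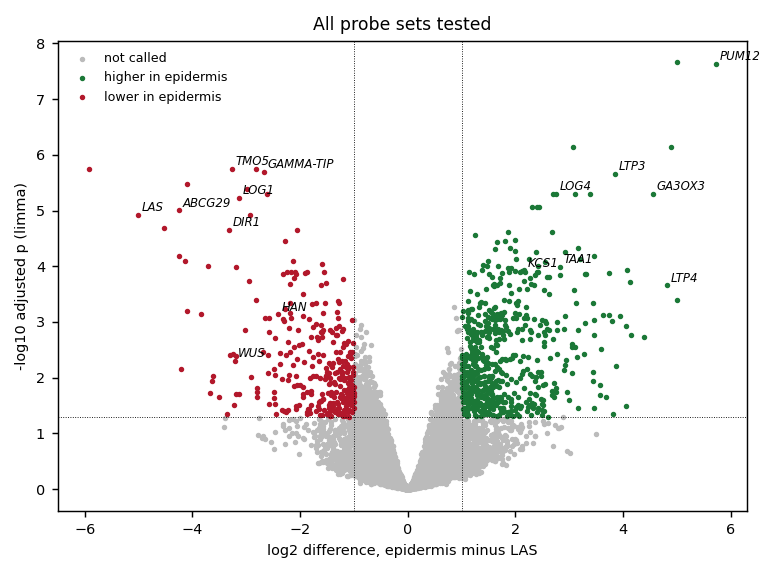
Log2 difference, epidermis minus LAS (x), against −log10 of limma's adjusted p (y) for the 15149 probe sets tested, with dotted lines at the 2 thresholds. Green points are the 590 called higher in the epidermis and red points the 314 called lower; LTP4 and PUM12 lie far to the right and LAS far to the left.

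Of 14 tested genes of epidermal identity, 2 rose, none fell, and the median difference was 0.93. ATML1 was 1 of the 2, and as its reporter chose the AtML1 cells, its difference there checks the sort. With AtML1 alone none was called, with HMG alone 4 were called higher and 1 lower, and with a pseudocount of 16 there were 4 higher. Besides ATML1 (AT4G21750), the receptor kinase ACR4 (AT3G59420), which acts in the differentiation of the outer layer, was called (1755 and 2020.4 in AtML1 and 2602, 2466 and 2208 in HMG, against 1088 and 938 in LAS; log2 1.08 ± 0.20, adjusted p = 0.0037). PDF2 (AT4G04890), the partner of ATML1, gave 4333 and 4339 in AtML1 and 4884, 5391 and 6265 in HMG, against 1748 and 3364 in LAS, and its difference did not pass (log2 1.01 ± 0.42, adjusted p = 0.156). PDF1 (AT2G42840), an L1 marker protein, gave 15652 to 20245 in the epidermal arrays, against 8709 and 9833 in LAS (log2 0.96, adjusted p = 0.103). The arrays did not overlap for any of these 4 genes, while the spread of the LAS pair was wide for PDF2. Summed signals of the 18 members with a probe set were 36784 to 44317 on the epidermal arrays and 17396 and 23422 on the LAS arrays. Called members numbered 1 higher and 1 lower without LAS replicate 1, 1 higher without LAS replicate 2, and 1 higher and 1 lower without HMG replicate 1 and LAS replicate 1 together. ACR4 lost its call without LAS replicate 2 (adjusted p = 0.0624).

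Of 33 tested cuticle and wax genes, 16 rose and none fell, with a median difference of 1.62, beside 3.89% of all tested probe sets called higher. By number this was the most of the 20 lists, while lipid transfer proteins had a like share (3 of 6). With a pseudocount of 16 there were 24. Summed signals of the 35 members were 101136 to 117244 on the epidermal arrays and 39264 and 48700.4 on the LAS arrays. KCS1 (AT1G01120), an elongase of very-long-chain fatty acids, gave 6605 and 6604 in AtML1 and 9106, 6886 and 6175 in HMG, against 1707 and 1415 in LAS. No epidermal array came near the LAS pair, and KCS1 was 4.46-fold higher (log2 2.16 ± 0.26, adjusted p = 0.000118). DCR (AT5G23940), an acyltransferase needed for cutin, gave 2336 and 3026 in AtML1 and 4518, 5325 and 2401 in HMG, against 592 and 1199.7 in LAS (log2 1.93 ± 0.43, adjusted p = 0.0105). CER6 (AT1G68530), the elongase of long epidermal waxes, gave 2292 to 3492 in the epidermal arrays, against 519.8 and 987 in LAS (log2 2.04 ± 0.60, adjusted p = 0.0456). CER4 (AT4G33790), the alcohol-forming reductase of the wax pathway, gave 259 and 289.9 in AtML1 and 32.5, 62.1 and 61.9 in HMG, against 69.5 and 9.03 in LAS. Its HMG arrays overlapped LAS, and it was not called with HMG alone (log2 0.94, adjusted p = 0.301). It was called absent in LAS and was, over both reporters, at least 3.52-fold higher (adjusted p = 0.015). MAH1 (AT1G57750), the mid-chain alkane hydroxylase that makes secondary alcohols and ketones of wax, was at least 6.79-fold higher (adjusted p = 0.0456). It gave 330.0 and 184 in AtML1 and 163, 152 and 48.9 in HMG, against 34.4 and 2.79 in LAS, so its level varied widely among the epidermal arrays. MAH1 was called present on only 1 HMG array. It was not called with AtML1 alone (log2 4.42, adjusted p = 0.0551) or HMG alone (log2 3.22, adjusted p = 0.106). DCR lost its call without LAS replicate 1 (adjusted p = 0.192), and CER6 without any 1 of the 7 arrays (adjusted p 0.0577 to 0.352). CER4 lost its call without LAS replicate 2 (adjusted p = 0.287), and MAH1 without any 1 of AtML1 replicates 1 and 3, HMG replicates 1 and 2 and LAS replicate 2 (adjusted p 0.0665 to 0.425).

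The other called members included the fatty acid elongases KCS8 (log2 1.72), KCS20 (1.47) and FDH (1.63). The exporters ABCG11, ABCG12 and ABCG32, transporters of cuticular lipids, rose by log2 1.91, 1.70 and 1.22. CYP86A2 (AT4G00360), a fatty acid hydroxylase of cutin synthesis, rose by 1.90, HTH by 1.15 and CER3 (AT5G57800), of alkane synthesis, by 1.21. The lipid transfer proteins LTPG1 (1.15) and LTPG2 (1.60), which are anchored at the cell surface, complete the 16. CER1 (log2 1.73, adjusted p = 0.054) and WSD1 (2.61, adjusted p = 0.066) did not pass. None of the 4 tested regulators of the cuticle passed either, with a median of 1.61, but the number called higher was 4 with a pseudocount of 16, 3 with only the 7 arrays fitted, and 1 with quantile normalization, with a filter at the 60th percentile or with an intensity trend. The count of called cuticle genes was 6 without LAS replicate 1, 12 without LAS replicate 2, and 6 without the arrays of highest actin ratio, with medians of 1.34, 1.70 and 1.35.

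Of 6 lipid transfer proteins, small secreted proteins that bind lipids, 3 rose and none fell (median 1.49). LTP3 gave 576 and 785 in AtML1 and 2513, 1762 and 1627 in HMG, against 124 and 48.6 in LAS. All epidermal arrays were several times brighter than LAS, with a 14.5-fold difference (log2 3.85 ± 0.30, adjusted p = 2.17e-06), and HMG was the brighter of the epidermal reporters. LTP3 was called present on 1 LAS array and absent on the other. LTP4 gave 1209 and 1002 in AtML1 and 133, 76.6 and 134 in HMG, against 14.9 and 8.85 in LAS and was called absent in LAS, so it was at least 14.6-fold higher (adjusted p = 0.000218). Here AtML1 was the brighter reporter, the opposite of LTP3. In HMG the fitted fold over LAS was 8.95, less than the bound for both reporters together. LTP1 gave 17198 to 30616 in the epidermal arrays, against 9142 and 9968 in LAS (log2 1.23 ± 0.26, adjusted p = 0.00788). These genes are close relatives, and cross-hybridisation between their probe sets was not tested. Called members numbered 2 higher without LAS replicate 1, 2 higher without LAS replicate 2, and 2 higher without HMG replicate 1 and LAS replicate 1 together. LTP1 lost its call without either LAS array (adjusted p 0.0546 to 0.0883).

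**Figure D3:**
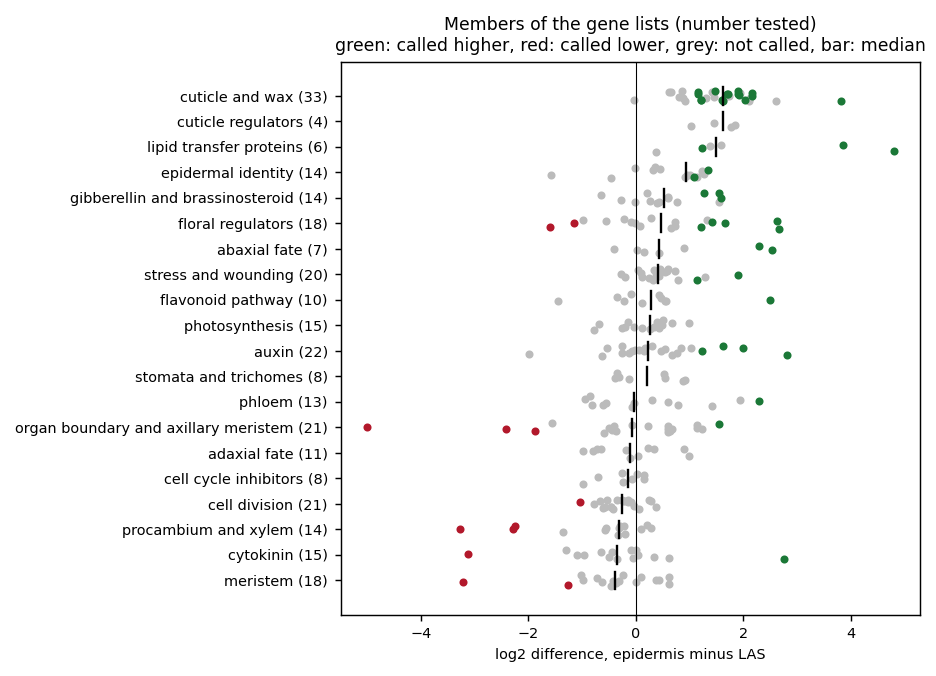
Log2 difference, epidermis minus LAS, of each tested member of 20 gene lists; green points were called higher, red points lower and grey points not called, and the bar is the list's median. Cuticle and wax genes sit to the right with 16 of 33 called, while the adaxial list, with none of 11 called, straddles 0.

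Outside these lists, 6 genes measured on both sides had the largest differences that were called higher. Measured here means not called absent on every array of a side. GA3OX3, CYP707A1, OCT2 and GRP-3 were called present on 1 LAS array and absent on the other, so their LAS levels and folds are less certain. GA3OX3 (AT4G21690), an enzyme that makes active gibberellin, gave 401 and 989.6 in AtML1 and 1345, 1197 and 1606 in HMG, against 40.9 and 36.7 in LAS. It was 23.4-fold higher (log2 4.55 ± 0.39, adjusted p = 5.01e-06), and no epidermal array was near LAS. CYP707A1 (AT4G19230), which breaks down abscisic acid, gave 398 to 1068 in the epidermal arrays, against 59.9 and 103 in LAS (8.94-fold; log2 3.16 ± 0.34, adjusted p = 4.67e-05). AGO5 (AT2G27880), an ARGONAUTE protein that binds small RNAs, gave 547 and 798 in AtML1 and 2684, 3275 and 4628 in HMG, against 215 and 134 in LAS (log2 3.15 ± 0.61, adjusted p = 0.00423). Its levels differed between the epidermal reporters, HMG being higher, and with AtML1 alone it was not called (log2 1.96, adjusted p = 0.109). AGO5 averaged 5322 in HDG4, above its means in AtML1 (672) and HMG (3529), and was called higher there than in LAS (log2 4.95, adjusted p = 0.000272). OCT2 (AT1G79360), of the organic cation transporter family, gave 481 to 815 in the epidermal arrays, against 52.9 and 70.8 in LAS (log2 3.44 ± 0.72, adjusted p = 0.00775). GRP-3 (AT2G05520), a glycine-rich cell wall protein, gave 214 to 1778 in the epidermal arrays, against 103 and 86 in LAS (log2 3.11 ± 0.57, adjusted p = 0.00277), and TPPJ (AT5G65140), a trehalose 6-phosphate phosphatase, 1328 to 2039.8 in the epidermal arrays, against 245 and 256 in LAS (log2 2.70 ± 0.23, adjusted p = 5.01e-06). AGO5 lost its call without LAS replicate 2 (adjusted p = 0.0701), and OCT2 without either LAS array (adjusted p 0.0519 to 0.0899).

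A further set of genes was called present on all epidermal arrays and absent on both LAS arrays. PUM12 (AT5G56510), of the Pumilio family of RNA-binding proteins, gave 94.1 and 104 in AtML1 and 397, 303 and 603 in HMG, against 4.21 and 1.86 in LAS and was at least 8.51-fold higher (adjusted p = 2.31e-08). HAT2 (AT5G47370), an auxin-inducible homeodomain protein, gave 435 to 888 in the epidermal arrays, against 105 and 68.3 in LAS, at least 7.60-fold higher (adjusted p = 5.56e-05). CCA1 (AT2G46830), a MYB-like factor of the circadian clock, gave 192 to 321 in the epidermal arrays, against 11.4 and 45.7 in LAS, at least 5.78-fold higher (adjusted p = 0.000137). The sources used here give no time of harvest. SULTR3;4 (AT3G15990), of the sulfate transporter family, was at least 8.66-fold higher (adjusted p = 0.000906). SCPL11 (AT2G22970), of the serine carboxypeptidase-like family, was at least 8.46-fold higher (adjusted p = 0.00611). CLH1 (AT1G19670), a chlorophyllase, was at least 5.73-fold higher (adjusted p = 0.0137). HP6, or AHP6, a pseudo-phosphotransfer protein that dampens cytokinin signalling, gave 430.3 to 1653 in the epidermal arrays, against 131 and 118 in LAS, at least 5.60-fold higher (adjusted p = 0.000913). SCPL11 lost its call without LAS replicate 2 (adjusted p = 0.153), and CLH1 without either LAS array (adjusted p 0.0898 to 0.114).

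Of 22 tested auxin genes, 4 rose, 2 of them in auxin synthesis and 1 in auxin import, and none fell (median 0.23), beside 3.89% of all probe sets called higher. Called members numbered 3 higher and 1 lower without LAS replicate 1, 4 higher without LAS replicate 2, and 3 higher and 1 lower without HMG replicate 1 and LAS replicate 1 together. TAA1 (AT1G70560), the aminotransferase of the first step of auxin synthesis, gave 1057 and 814 in AtML1 and 901, 1334 and 2066 in HMG, against 133 and 187 in LAS (7.07-fold; log2 2.82 ± 0.33, adjusted p = 0.000101). Every epidermal array was above LAS by a wide margin. YUC1 (AT4G32540), the flavin monooxygenase of the next step, gave 551 to 831 in the epidermal arrays, against 151 and 292 in LAS (log2 1.63 ± 0.27, adjusted p = 0.00141). LAX1 (AT5G01240), an auxin importer, gave 1710.5 and 2028 in AtML1 and 2548, 2943 and 4498 in HMG, against 535 and 700.5 in LAS (log2 2.001 ± 0.22, adjusted p = 5.25e-05). NPY1 (AT4G31820), which acts with the kinase PID in organ formation, gave 2496 to 4845 in the epidermal arrays, against 1296 and 1274 in LAS (log2 1.24 ± 0.21, adjusted p = 0.0015). The response factor MP did not pass (log2 0.07, adjusted p = 0.908). YUC1 lost its call without LAS replicate 1 (adjusted p = 0.0549).

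In the cytokinin list, 2 enzymes of the LOG family, which release active cytokinin, changed in opposite directions, and no other member of 15 tested passed. LOG4 gave 5233 and 5347 in AtML1 and 5516, 5720.0 and 6126 in HMG, against 913 and 736 in LAS (6.74-fold higher; log2 2.75 ± 0.23, adjusted p = 5.01e-06). LOG1 gave 8.63 and 10.5 in AtML1 and 28.6, 20.3 and 15.4 in HMG, against 149 and 116 in LAS, was called absent on the epidermal arrays and was at least 4.71-fold lower there (adjusted p = 5.93e-06). Neither gene had overlapping arrays. The receptor gene AHK4 gave log2 -0.64, adjusted p = 0.111, below the threshold for a call. Of 14 tested genes of gibberellin and brassinosteroid metabolism and response, 3 rose and none fell (median 0.52), beside 3.89% of all probe sets. They were DWF4 (AT3G50660), a brassinosteroid synthesis enzyme (4828 to 9005 in the epidermal arrays, against 2762 and 1728 in LAS; log2 1.60 ± 0.37, adjusted p = 0.0134), BAS1 (AT2G26710), which inactivates brassinosteroids (140.4 to 342 in the epidermal arrays, against 90.2 and 65.1 in LAS; log2 1.55 ± 0.38, adjusted p = 0.0196), and GA2OX6 (AT1G02400), which inactivates gibberellins (58.2 to 267 in the epidermal arrays, against 42 and 45.1 in LAS; log2 1.27 ± 0.36, adjusted p = 0.0368). DWF4 lost its call without LAS replicate 2 (adjusted p = 0.172), and BAS1 without any 1 of AtML1 replicate 3 and LAS replicates 1 and 2 (adjusted p 0.0725 to 0.18). GA2OX6 was called absent on both AtML1 arrays (58.2 and 59.9). With AtML1 alone it was not called (log2 0.432, adjusted p = 0.589). Its rise was called in HMG only (267, 177 and 144; log2 2.098, adjusted p = 0.00276). GA2OX6 lost its call without any 1 of AtML1 replicates 1 and 3, HMG replicates 1 and 2 and LAS replicates 1 and 2 (adjusted p 0.0539 to 0.213).

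LAS cells are labelled adaxial, yet none of 11 tested adaxial genes was called in either direction (median -0.11). Other settings gave other counts: 2 were called lower without LAS replicate 1, 2 lower without HMG replicate 1 and LAS replicate 1 together, and 3 lower with AtML1 alone. In the other direction, 1 was called higher with HMG alone, with array weights or without HMG replicate 1. Without HMG replicate 2 or HMG replicate 3, 1 was called lower. The HD-ZIP class III gene PHB gave 995 and 976 in AtML1 and 1000.2, 1840.3 and 3570.0 in HMG, against 529 and 876 in LAS (log2 1.00 ± 0.35, adjusted p = 0.0908). PHB was called higher with HMG alone (log2 1.46, adjusted p = 0.0227) and with array weights (log2 1.00, adjusted p = 0.0271). REV, another HD-ZIP class III gene, gave 1936 and 1573 in AtML1 and 2832, 3419 and 5226 in HMG, against 3036 and 5796 in LAS (log2 -0.72 ± 0.28, adjusted p = 0.128). With AtML1 alone REV was called lower (log2 -1.26, adjusted p = 0.0316). The related PHV gave 899 to 1629 in the epidermal arrays, against 995 and 1396 in LAS (log2 -0.18 ± 0.24, adjusted p = 0.715). AS2 (AT1G65620), a LOB-domain regulator, gave 127 to 263 in the epidermal arrays, against 95.9 and 95.9 in LAS (log2 0.90 ± 0.51, adjusted p = 0.306). ATHB15 and AGO10 passed the adjusted p at less than a 2-fold difference, both lower in the epidermis (log2 -0.99, adjusted p = 0.00996 and log2 -0.81, adjusted p = 0.00495). Of 7 tested abaxial genes, 2 rose and none fell, with medians of log2 2.104 in AtML1 and -0.11 in HMG, each against LAS. The YABBY gene FIL gave 922 and 967 in AtML1 and 927, 988 and 562 in HMG, against 177 and 126 in LAS (5.79-fold; log2 2.53 ± 0.34, adjusted p = 0.000268), and INO, another YABBY gene, gave 283 and 194 in AtML1 and 71.6, 80.3 and 52.8 in HMG, against 10.6 and 55.9 in LAS. An HMG array overlapped LAS, and INO was not called with HMG alone (log2 1.41, adjusted p = 0.203). Over both reporters it was at least 2.80-fold higher (adjusted p = 0.0312). PHB, not called here, was called higher without HMG replicate 1 (log2 1.22, adjusted p = 0.0115). INO lost its call without any 1 of AtML1 replicates 1 and 3, HMG replicate 2 and LAS replicate 1 (adjusted p 0.0551 to 0.449).

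Floral regulators changed in both directions. Of 18 tested, 5 rose and 2 fell (median 0.47), beside 3.89% of all probe sets called higher and 2.07% called lower. LFY (AT5G61850), the transcription factor that specifies floral meristems, gave 2269 and 2425 in AtML1 and 3302, 4059.5 and 4991 in HMG, against 739 and 1278 in LAS (log2 1.67 ± 0.25, adjusted p = 0.000721). UFO (AT1G30950), an F-box partner of LFY, gave 543 and 264 in AtML1 and 751, 728 and 1076 in HMG, against 88.1 and 92.2 in LAS (6.19-fold; log2 2.63 ± 0.36, adjusted p = 0.000315). Both were higher on every epidermal array. UFO was called present on neither LAS array and absent on 1, so its fold is less certain. Both were also called higher than LAS in HDG4 (UFO log2 3.94, adjusted p = 2.25e-05, and LFY log2 1.42, adjusted p = 0.0051). There UFO averaged 1436, above its means in AtML1 (403) and HMG (851). The SEPALLATA genes SEP2 (1513 to 2789.5 in the epidermal arrays, against 179 and 630.1 in LAS; log2 2.67 ± 0.67, adjusted p = 0.0208) and SEP4 (306 to 1038 in the epidermal arrays, against 219.9 and 235 in LAS; log2 1.21 ± 0.28, adjusted p = 0.0145) also rose. SEP1 was at least 2.39-fold higher (adjusted p = 0.0313). TFL1 (AT5G03840), which maintains inflorescence identity, fell: it gave 1140.4 and 1872 in AtML1 and 1240.0, 1019.8 and 552 in HMG, against 3550.3 and 3366 in LAS (3.03-fold lower; log2 -1.60 ± 0.28, adjusted p = 0.00182), and SPL15 (AT3G57920), which promotes the floral transition, gave log2 -1.16, adjusted p = 0.0241. Called members numbered 2 higher and 1 lower without LAS replicate 1, 3 higher and 2 lower without LAS replicate 2, and 2 higher and 1 lower without HMG replicate 1 and LAS replicate 1 together. SEP2 lost its call without either AtML1 replicate 3 or LAS replicate 1 (adjusted p 0.0622 to 0.304), and SEP1 without any 1 of AtML1 replicates 1 and 3 and LAS replicates 1 and 2 (adjusted p 0.0513 to 0.3).

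Among 21 tested genes of organ boundaries and axillary meristems, 3 fell, 1 rose (BAS1) and the median was -0.07. Of all probe sets, 2.07% were called lower and 3.89% higher. LAS itself chose the cells, so its difference checks the sort. HAN (AT3G50870), a GATA factor that acts at boundaries, gave 228 and 149 in AtML1 and 201, 219 and 131 in HMG, against 991 and 949.8 in LAS (5.32-fold lower; log2 -2.41 ± 0.36, adjusted p = 0.000726). LSH4 (AT3G23290), a boundary gene of the ALOG family, gave 271 and 247 in AtML1 and 222, 136 and 56.9 in HMG, against 679 and 618 in LAS (3.66-fold lower; log2 -1.87 ± 0.46, adjusted p = 0.0181). In both genes all epidermal arrays lay below LAS. The NAC genes that define boundaries did not pass: CUC1 gave 215 and 286 in AtML1 and 127, 339.5 and 346 in HMG, against 97.4 and 127 in LAS (log2 1.15 ± 1.04, adjusted p = 0.548). CUC2 gave 127 to 193 in the epidermal arrays, against 179.8 and 239 in LAS (log2 -0.37 ± 0.47, adjusted p = 0.687) and CUC3 626 to 1235 in the epidermal arrays, against 984 and 1533 in LAS (log2 -0.42 ± 0.34, adjusted p = 0.5). Boundary and epidermis are not exclusive classes, since the L1 runs over the boundary. Called members numbered 2 lower without LAS replicate 1, 2 lower without LAS replicate 2, and 1 higher and 2 lower without HMG replicate 1 and LAS replicate 1 together. LSH4 lost its call without any 1 of AtML1 replicate 3 and LAS replicates 1 and 2 (adjusted p 0.0503 to 0.139), and BAS1 without any 1 of AtML1 replicate 3 and LAS replicates 1 and 2 (adjusted p 0.0725 to 0.18).

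Of 18 meristem genes, all tested, 2 fell and none rose (median -0.39), beside 2.07% of all probe sets called lower. WUS (AT2G17950), the homeodomain protein of the organising centre below the outer layers, gave 56.8 and 23.6 in AtML1 and 12.1, 8.85 and 17.3 in HMG, against 209.8 and 206 in LAS. It was called absent on every epidermal array and was at least 6.16-fold lower there (adjusted p = 0.00495). CLV1 (AT1G75820), the receptor kinase that limits WUS, gave 613 and 618 in AtML1 and 843, 877 and 1138 in HMG, against 1915 and 1768 in LAS (2.41-fold lower; log2 -1.27 ± 0.21, adjusted p = 0.00118). STM (AT1G62360), a KNOX protein that keeps meristem cells undifferentiated, gave 3402 to 4097 in the epidermal arrays, against 5115 and 4805 in LAS (log2 -0.37 ± 0.15, adjusted p = 0.137). The peptide gene CLV3 did not pass (log2 0.63, adjusted p = 0.643). Of 21 tested cell division genes, 1 fell: CYCB2;1 (AT2G17620), a mitotic cyclin (63 to 133 in the epidermal arrays, against 254 and 159.5 in LAS; log2 -1.05 ± 0.24, adjusted p = 0.0134). None of 8 cell cycle inhibitors was called. Fewer members of the meristem list were called without either LAS array, or without HMG replicate 1 and LAS replicate 1 together. The median of the meristem list was -0.29 without LAS replicate 1 and -0.38 without LAS replicate 2. It was -0.34 without HMG replicate 1 and LAS replicate 1 together. WUS lost its call without either LAS array (adjusted p 0.0508 to 0.0554), and CYCB2;1 without any 1 of AtML1 replicate 3, HMG replicate 1 and LAS replicate 1 (adjusted p 0.0223 to 0.238, the lowest at under 2-fold).

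The largest falls outside the lists, in genes measured on both sides, included vacuolar water channels and a lipid transfer protein. DIR1 (AT5G48485), a lipid transfer protein of systemic resistance, gave 193 and 107 in AtML1 and 57.7, 50.7 and 27.7 in HMG, against 1043 and 614 in LAS (9.99-fold lower; log2 -3.32 ± 0.33, adjusted p = 2.22e-05). GAMMA-TIP and DELTA-TIP, aquaporins of the vacuole membrane, gave 166 to 387 in the epidermal arrays, against 1778 and 1408 in LAS (6.40-fold lower; log2 -2.68 ± 0.20, adjusted p = 2.01e-06) and 57.4 to 162 in the epidermal arrays, against 447 and 805 in LAS (log2 -2.27 ± 0.33, adjusted p = 0.000588). None of these epidermal values reached the LAS pair. ADS2 (AT2G31360), a fatty acid desaturase, gave 84.9 to 330.0 in the epidermal arrays, against 1176 and 1049 in LAS (log2 -2.62 ± 0.22, adjusted p = 4.96e-06). HSP81-2 (AT5G56030), an HSP90 chaperone, gave 1808 to 3134 in the epidermal arrays, against 11586 and 12589 in LAS (log2 -2.32 ± 0.29, adjusted p = 0.000139), and MCT2, named as in the annotation, 53.3 to 229.7 in the epidermal arrays, against 705 and 539 in LAS (log2 -2.60 ± 0.55, adjusted p = 0.0082). DI21 (AT4G15910), a drought-induced gene, differed by log2 -2.19, adjusted p = 0.000701 and TPPD (AT1G35910), a trehalose 6-phosphate phosphatase, by log2 -2.17, adjusted p = 0.000852. TPPJ, of the same enzyme family, had the opposite direction. MCT2 was called present on only 1 AtML1 array and 1 HMG array, and DELTA-TIP on both AtML1 arrays but only 1 HMG array. MCT2 lost its call without either LAS array (adjusted p 0.0508 to 0.0983).

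The next genes were called present on both LAS arrays and absent on all epidermal arrays. ABCG29 (AT3G16340), a transporter of monolignols, gave 9.84 and 11.2 in AtML1 and 53, 34.1 and 13.3 in HMG, against 269 and 465 in LAS and was at least 11.2-fold lower in the epidermis (adjusted p = 9.88e-06). ATCAD4 (AT3G19450), a cinnamyl alcohol dehydrogenase that makes monolignols, gave 8.8 to 30 in the epidermal arrays, against 272 and 219 in LAS, at least 7.96-fold lower (adjusted p = 0.000101). GAMT2 (AT5G56300), which methylates and so inactivates gibberellins, was at least 7.43-fold lower (adjusted p = 0.0304). TBL38 (AT1G29050), of the trichome birefringence-like family, was at least 6.52-fold lower, and WRKY13 (AT4G39410), a WRKY transcription factor (25.7 to 96.1 in the epidermal arrays, against 202 and 279.8 in LAS), at least 6.40-fold lower (adjusted p = 0.00408 and 0.00341). CYP71A12 (AT2G30750), of camalexin synthesis, was at least 6.26-fold lower, and ATL63 (AT5G58580), of a family of RING-type ubiquitin ligases, at least 4.92-fold lower (adjusted p = 0.0189 and 0.0105). ATL63 gave 277 and 147 in AtML1 and 73.2, 85.1 and 16.6 in HMG, against 577 and 430.1 in LAS, and with AtML1 alone it was not called (log2 -1.30, adjusted p = 0.214). GAMT2 lost its call without any 1 of AtML1 replicates 1 and 3, HMG replicate 2 and LAS replicates 1 and 2 (adjusted p 0.0506 to 0.183), and TBL38 without LAS replicate 1 (adjusted p = 0.0564). WRKY13 lost its call without LAS replicate 2 (adjusted p = 0.057), and CYP71A12 without any 1 of AtML1 replicate 3 and LAS replicates 1 and 2 (adjusted p 0.0699 to 0.127). ATL63 lost its call without either LAS array (adjusted p 0.0566 to 0.123).

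Markers of other cell types were counted in the same way. Of 14 tested procambium and xylem genes, 3 fell and none rose, beside 2.07% of all probe sets called lower. TMO5 (AT3G25710), a bHLH factor of vascular initials, gave 4.38 and 6.25 in AtML1 and 7.21, 14.5 and 13.1 in HMG, against 77.2 and 89.3 in LAS and was at least 2.99-fold lower (adjusted p = 1.78e-06). PXY and RUL1, receptor kinases of the cambium, were called lower as well but were called absent on both sides, so no fold is given. Of the 15 members with a probe set, 13 were absent on all epidermal arrays and 11 on both LAS arrays. Their summed signals were 1919 to 2885 on the epidermal arrays and 3521 and 3158 on the LAS arrays. Of 13 tested phloem genes, 1 rose, PP2-A1, again called absent on both sides. Phloem sums were 500.1 to 1076 on the epidermal arrays and 732 and 639 on the LAS arrays. None of 8 tested genes of stomata and trichomes and none of 15 photosynthesis genes was called, with PSBO1 the only photosynthesis gene past the adjusted p (log2 0.98, adjusted p = 0.00304). In the flavonoid pathway, 1 of 10 rose, the regulator MYB11, by at least 4.84-fold (adjusted p = 0.0459). PP2-A1 lost its call without any 1 of the 7 arrays (adjusted p 0.0528 to 0.26), and MYB11 without any 1 of the 7 arrays (adjusted p 0.0535 to 0.274).

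Of 20 tested genes of heat, touch, wounding and jasmonate, 2 rose and none fell, beside 3.89% of all tested probe sets called higher. The median was 0.42, beside -0.07 over all tested probe sets, and 18 of the 20 genes had positive differences. Their summed signals were 101766 to 131142 on the epidermal arrays and 87759 and 72997 on the LAS arrays, without overlap. The lipoxygenases LOX4 (1963 and 2350.2 in AtML1 and 2329, 2805 and 2078 in HMG, against 660.2 and 559 in LAS; log2 1.90 ± 0.20, adjusted p = 4.67e-05) and LOX3 (1533 to 2845 in the epidermal arrays, against 999.7 and 884 in LAS; log2 1.13 ± 0.14, adjusted p = 0.000128), enzymes of jasmonate synthesis, were the members called. The part of protoplasting and sorting in any difference named here was not tested.

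The epidermal reporters also differed from each other. AtML1 and HMG differed in 759 probe sets (5.01%), and among the genes called against LAS they differed in 75 of the 590 higher and 62 of the 314 lower. Each reporter alone gave 886 calls (5.85%, AtML1) and 1077 calls (7.11%, HMG) against the same LAS arrays. The widest gaps among genes called in both contrasts were in LTP4, LCR69, HB40, MED31 and PER4. LCR69 (AT2G02100), of a family of small cysteine-rich secreted proteins, gave 1219 and 1807 in AtML1 and 224, 181 and 95.8 in HMG, against 2476 and 1543 in LAS, so AtML1 resembled LAS and HMG was low. MED31 (AT5G19910), a Mediator subunit, gave 7.03 and 15 in AtML1 and 109, 81.6 and 64.2 in HMG, against 96.3 and 125 in LAS, so HMG resembled LAS and AtML1 was low. PER4 (AT1G14540), a peroxidase, gave 33.3 and 102 in AtML1 and 398, 433 and 485 in HMG, against 4.11 and 40.7 in LAS, with HMG high. For these genes the epidermal mean lies between the reporters and describes neither of them. The fit on only the 7 arrays of AtML1, HMG and LAS called 6 probe sets between AtML1 and HMG. The count was 359 without AtML1 replicate 1, 387 without AtML1 replicate 3, 1192 without HMG replicate 1 and 455 without HMG replicate 3. HB40 (AT4G36740), a homeodomain gene, was called absent on both sides. Against LAS, LCR69 lost its call without LAS replicate 1 (adjusted p = 0.0693), and HB40 without any 1 of AtML1 replicate 1, HMG replicates 1, 2 and 3 and LAS replicates 1 and 2 (adjusted p 0.0505 to 0.23).

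**Figure D4:**
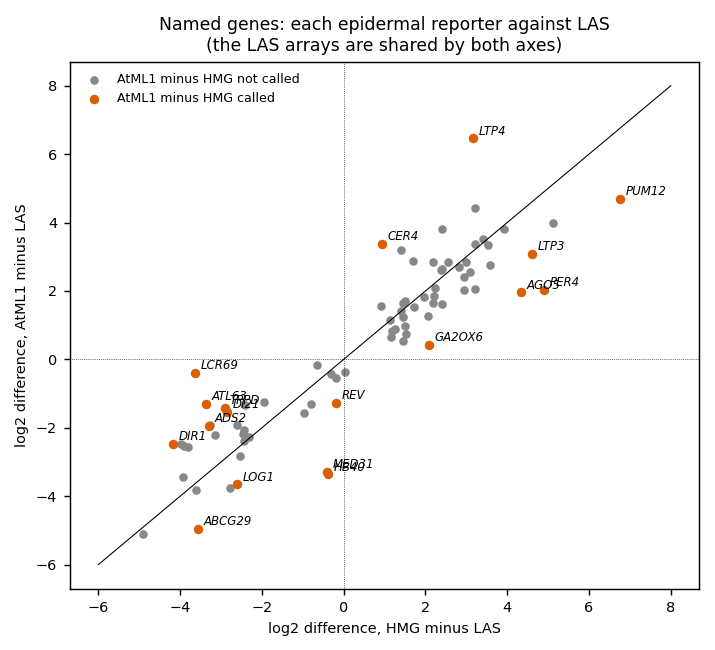
Log2 difference from LAS of each named gene in AtML1 (y) and in HMG (x), with the line of equality; orange points are genes in which AtML1 and HMG differed by limma. The LAS arrays enter both axes, so the spread along the line is no evidence of likeness; LTP4, CER4 and LCR69 lie above the line and PUM12, AGO5 and PER4 below it.

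The same genes were placed in the organ circumference (KAN1, n = 3) and the layer beneath the epidermis (HDG4, n = 3). KAN1 differed from LAS in 11.0% of probe sets and HDG4 in 4.75%, and both use the LAS arrays, so their differences are not independent of those above. Of the 590 called higher in the epidermis, 327 were also called higher than LAS in KAN1 and 142 in HDG4. Of the 314 called lower, 92 were also called lower than LAS in KAN1 and 53 in HDG4. HAN averaged 188 ± 55.6 in AtML1 (n = 2), 184 ± 46.5 in HMG, 735 ± 195 in KAN1 and 727 ± 276 in HDG4, against 970.3 ± 29 in LAS (n = 2; SD throughout). HAN was thus low in the epidermal arrays but did not pass the test against LAS in KAN1 (log2 -0.44 ± 0.39, adjusted p = 0.474) or HDG4 (log2 -0.49 ± 0.39, adjusted p = 0.6). LOG1 likewise did not pass in KAN1 (log2 -0.64 ± 0.29, adjusted p = 0.142) or HDG4 (log2 -0.13 ± 0.29, adjusted p = 0.883). LAS was low in all of them, at 89.7 ± 10.4 in KAN1 and 184 ± 27 in HDG4.

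Of the genes higher in the epidermis, LOG4 averaged 5290.0 ± 80 in AtML1, 5787 ± 311 in HMG, 406 ± 44.2 in KAN1 and 2167 ± 125 in HDG4, against 824 ± 125 in LAS. Its difference from LAS was log2 -1.02 ± 0.25, adjusted p = 0.0122 in KAN1 and log2 1.40 ± 0.25, adjusted p = 0.00343 in HDG4. KCS1 averaged 4073 in KAN1 and 293 in HDG4 (log2 1.39 ± 0.28, adjusted p = 0.00354 and log2 -2.42 ± 0.28, adjusted p = 8.33e-05). It was thus higher than LAS in KAN1 and lower than LAS in HDG4. TPPJ was higher than LAS in each (log2 2.66 ± 0.25, adjusted p = 1.03e-05 in KAN1 and log2 2.79 ± 0.25, adjusted p = 7.1e-06 in HDG4), as was PUM12, absent in LAS (as fitted, log2 4.27 ± 0.31, adjusted p = 1.34e-06 and log2 7.45 ± 0.31, adjusted p = 3.22e-09). For TPPJ and PUM12 the LAS arrays, not the epidermis, stood apart. Other named genes were also called in the epidermal direction against LAS in both KAN1 and HDG4. Higher in both were GA3OX3, CYP707A1, HAT2, CCA1, HP6, FIL, BAS1, LTP4 and PER4. Lower in both, besides LAS itself, were TFL1, HSP81-2, DI21 and WRKY13. A difference from LAS in these genes is therefore not particular to the epidermis. TAA1 did not pass in KAN1 (log2 -0.26 ± 0.36, adjusted p = 0.66) or HDG4 (log2 0.78 ± 0.36, adjusted p = 0.268). Like KCS1, ATML1, PDF2, ACR4, DCR, CER6 and LTP1 were called lower in HDG4 than in LAS. Their log2 differences, HDG4 minus LAS, were -3.32, -4.18, -1.07, -2.93, -2.77 and -2.82. LTP3, MAH1 and CER4 did not pass in HDG4, and LTP4, absent in LAS, was called higher there.

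**Figure D5:**
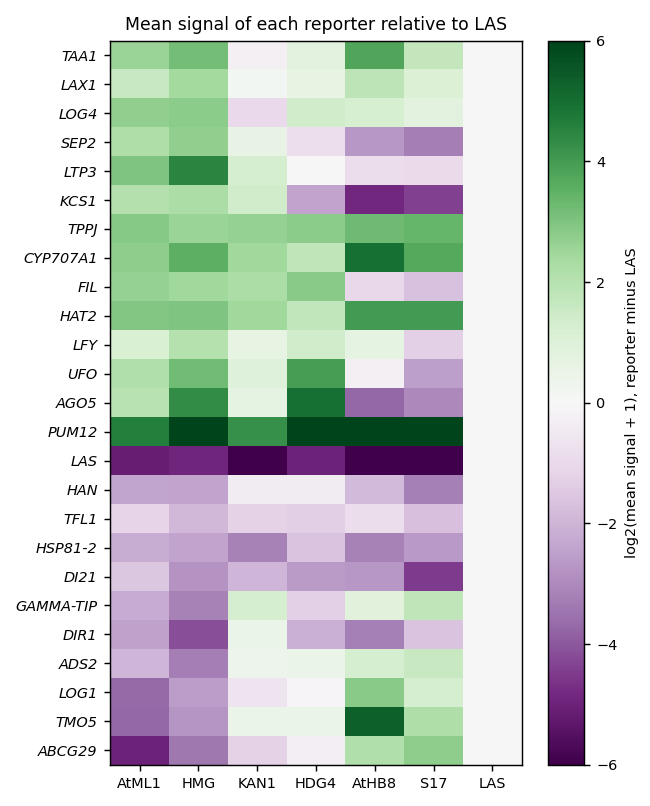
Log2 of the mean signal + 1 of each reporter minus that of LAS for 25 named genes, with green for higher and purple for lower than LAS; values beyond the scale take its end colour. TPPJ, CYP707A1, HAT2 and PUM12 are green in all 6 other reporters and LAS is purple in all of them. LOG1 and TMO5 are purple in AtML1 and HMG but green in AtHB8 and S17.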

How the data were processed

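The deposited intensity values were single-colour MAS5 signals of 22810 probe sets on Affymetrix ATH1 arrays, as scaled by the authors. The name MAS5 comes from the submitters' processing notes; a version is not given in the sources used here. Per the labels, apices were protoplasted and reporter-carrying cells sorted, and the RNA went through 2 rounds of amplification, per the series design. The authors' deposited table of averaged intensity differed from the means computed here by at most 0.005 and supplied the detection calls and a locus for 21021 probe sets; 20776 of these loci matched RefSeq names. Leaving out 64 control probe sets, 15149 of 22746 were tested: those that reached the 40th percentile on every array of 1 reporter or more.

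limma 3.58.1 in R 4.3.3 fitted log2(signal + 1) with 1 mean per reporter over all 19 arrays (12 residual and 3.07 prior degrees of freedom), so that AtML1 and LAS, with 2 arrays each, shared the spread of all. The added 1 understates the differences of dim genes. The contrast was the mean of AtML1 and HMG minus LAS, two-sided, with Benjamini-Hochberg adjustment over all probe sets tested. Bounds of the fold took, per array of the dimmer group, the gene's signal or, if higher, the dimmest signal of any probe set called present; each fold or bound compares geometric means, taken over arrays and then over AtML1 and HMG. The scripts were tested on simulated data, and Python 3.11.15 drew the figures with matplotlib 3.10.9.

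Named were the reporter genes and, in each direction, up to 10 genes of largest difference measured on both sides and 8 of largest bound. Up to 5 called members per list, central boundary, adaxial and epidermal genes, and the 5 widest gaps between AtML1 and HMG were added. Other called list members are named to complete a list and were picked after their values were seen. The 20 lists hold 360 loci, 290 of them tested. The members and lists were chosen with earlier results of these data known. Replicate numbers did not pair the arrays: correlations of same-numbered deviations ran from -0.12 to 0.21. Precision is limited by the number of arrays; scan dates and scanner files were not used.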

Additional observations from a re-analysis of the deposited data

Results flagged for a closer look

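For 18 named genes the difference from LAS was not the same in the epidermal reporters: AtML1 and HMG differed by limma's test of AtML1 minus HMG, with adjusted p under 0.05 and at least 2-fold. All values here are log2, AtML1 minus HMG, and whether they come from the cells sorted or from the reporter lines was not tested.

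Among genes higher in the epidermis, LTP4 (3.298) and CER4 (2.43) were brighter in AtML1. PER4 (-2.88), AGO5 (-2.38), PUM12 (-2.06), GA2OX6 (-1.67) and LTP3 (-1.52) were brighter in HMG. Among genes lower in the epidermis, LCR69 (3.23), ATL63 (2.07), DIR1 (1.71), TPPD (1.49), ADS2 (1.34) and DI21 (1.31) were lower in HMG than in AtML1. HB40 (-2.97), MED31 (-2.89), ABCG29 (-1.38) and LOG1 (-1.05) were lower in AtML1 than in HMG. HB40 was called absent in AtML1, HMG and LAS, so its value compares signals not called present. ATL63, ABCG29 and LOG1 were called absent on all AtML1 and HMG arrays, so their values here also compare signals not called present. REV, which was not called against LAS, differed by -1.08, with AtML1 the lower reporter. Each reporter has 2 or 3 arrays, too few for a test of single outlying samples.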

How the results depend on the processing

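Of the 71 named genes called, 32 kept their call under all alternatives, no named gene changed direction, and the most calls were lost without LAS replicate 1 (24), without the 2 arrays of highest actin ratio (24), without LAS replicate 2 (23) and with AtML1 alone (20). The count of probe sets called between epidermis and LAS ran from 527 to 942 with 1 array left out (388 to 624 higher, 139 to 379 lower). It was 563 without the 2 arrays of highest actin ratio (389 higher, 174 lower), an alternative chosen after seeing the data. With no fold minimum 1441 passed, 627 of them lower. With only the 7 arrays 159 were lower, and the share of calls that were higher was 74.5% against 65.3%. Replicate number as a block gave 906 calls (580 higher, 326 lower), shared 805 with those reported, and ended no call of a named gene. Between AtML1 and HMG, counts with 1 array left out ran from 359 to 1192 (133 to 696 higher in AtML1, 226 to 496 lower). With array weights they were 1335 (789 higher, 546 lower), with no fold minimum 1603 (779 and 824), and without the 2 arrays of highest actin ratio 1213 (714 higher). With only the 7 arrays limma called 6, all higher in AtML1, and 0 lower; at an unadjusted p under 0.05 there were 1767 higher and 1665 lower. That fit has fewer arrays from which to estimate the spread. Quantile normalization moved the share higher in AtML1 to 47.0% from 53.8%. The other alternatives (quantile normalization, the pseudocount of 16, the filters, equal weights for the 5 arrays, either reporter alone, an intensity trend) left the counts over all probe sets within 1.5-fold. Counts within single lists moved more, as given beside the epidermal, cuticle, regulator and adaxial lists. The actin ratio's log2 difference ran from -0.64 to 0.59 with 1 array left out.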

Other observations

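Some gene families outside the lists were chosen after their values were seen, so their counts are descriptions. Of 15 tested genes of abscisic acid breakdown, synthesis and perception, 5 were called higher in the epidermis, beside 3.89% of all probe sets. They were the breakdown enzymes CYP707A1 (log2 3.16) and CYP707A3 (1.63), the synthesis enzyme NCED9 (at least 4.66-fold higher) and the receptors PYR1 (2.42) and PYL7 (1.20). Of 21 tested glutathione transferases, 6 were called higher, among them GSTF9 (log2 1.75) and GSTF10 (1.71), while GSTU23 was called absent on both sides. Of 11 tested genes with a CRK symbol, taken as cysteine-rich receptor kinases, 4 were called higher, among them CRK10 (log2 1.62) and CRK2 (1.72). The symbol CRK3 stood for 2 probe sets, 1 called (1.19) and 1 not (-0.05). Membership rests on the symbol alone, so some of the 11 may not belong to the family. Of 7 tested MLO proteins, which include powdery mildew susceptibility factors, 3 were called higher, among them MLO2 (log2 1.21).

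Of 17 tested aquaporins, 4 were called lower in the epidermis, beside 2.07% of all probe sets, and 1 higher. Besides GAMMA-TIP and DELTA-TIP, the plasma membrane channels PIP1A (log2 -1.24) and PIP1B (-1.001) were lower, while PIP2;5 was higher (1.09). Among zinc finger homeodomain genes, HB33 (log2 -1.56) and ZFHD1 (-1.58) were lower, and HB28 (1.38) and HB30 (at least 2.69-fold) were higher. HB22 was also called higher but was absent on both sides. Of 33 tested WRKY factors, 4 were called higher, with WRKY17 (log2 2.34) and WRKY22 (1.72) the furthest, and 2 were called lower. Of 19 tested heat shock factors and HSP70 and HSP90 proteins, 4 were called lower and 1 higher. Lower were HSF4 (log2 -1.52), HSP81-2 (-2.32), Hsp70-2 (at least 2.76-fold) and HSFB4, which was called absent on both sides, while HSF A4A was higher (1.39).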
